A study of Mus musculus with 30 samples.

Results

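The comparison described here set inguinal white adipose tissue (iWAT) of mice kept at 6 °C for 24 h against iWAT of mice kept at 6 °C for 6 h, across all genes of the deposited count table. It compared 10 of the 30 libraries of the series, 5 in each group, chosen by tissue and time in the cold alone. The main test of levels also took in the 5 iWAT libraries at 22 °C, which entered its filter, scaling and estimate of spread. With these, 13689 of 21652 genes had enough reads to be tested. All animals were male C57BL/6J mice of 7 to 8 weeks, caged 5 together with free food and water under 12 h of light and 12 h of dark. The labels name no altered allele and no drug in any group. The other groups, 5 libraries each, were iWAT at 22 °C and brown adipose tissue (BAT) at 22 °C and after 6 h and 24 h at 6 °C. The controls carry a label of 22 °C, whereas the animal room is described as 24 ± 2 °C. Neither the hour of tissue collection nor whether a library came from 1 animal or from a pool is stated, so p-values measure the spread between libraries, which may be technical. An effect of the clock hour and an effect of cold duration cannot be told apart in this design.

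iWAT is a subcutaneous depot made mostly of cells that store fat. In the cold, noradrenaline from sympathetic nerves acts on beta-adrenergic receptors of these cells, raises cyclic AMP and releases fatty acids. Part of the cells then turn on a heat-producing programme, with the mitochondrial uncoupling protein Ucp1, the thyroid hormone activating enzyme Dio2 and the coactivator Ppargc1a, and are called beige. Beige fat also has calcium and creatine cycles that spend ATP, and it secretes factors such as Fgf21 and Gdf15.

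Assigned counts per library ran from 27.3M to 36.5M at 6 h and from 30.7M to 38.3M at 24 h. Libraries 1, 3 and 4 of the 6 h group lay farther from their group than any 24 h library, with values given with the spread below. All 12 adipocyte markers were tested, and their summed level was 39740.1 to 59342 CPM at 6 h and 36941 to 47022 at 24 h (CPM, counts scaled to library size, here after TMM normalization, which allows for differences in library make-up). Markers of other tissues that could be cut out with the depot were low in both groups. The skeletal muscle list summed to 2.69 to 8.27 CPM at 6 h and 2.47 to 6.68 at 24 h, and the list of lymphocytes and lymph node to 6.33 to 16.8 CPM at 6 h and 7.8 to 18.2 at 24 h. In the 22 °C iWAT group, replicate 2 had 1464 CPM of the skeletal muscle list and the other libraries 3.46 to 9.26. Of 10 epithelial and skin markers only 3 had enough reads to be tested. In bulk tissue, fewer cells of a type and less RNA per cell cannot be told apart.

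Between 6 h and 24 h in the cold, few iWAT genes were called different in level. By edgeR's quasi-likelihood test with Benjamini-Hochberg adjustment, no gene was higher at 24 h (0%) and 1 was lower (0.00731%) at an adjusted p under 0.05. At an unadjusted p under 0.05 there were 589 higher genes (4.3%) and 762 lower genes (5.57%), and the median log2 change over all tested genes was -0.00055. In simulated counts, where genes varied independently, 4.69% of unchanged genes had an unadjusted p under 0.05 in either direction. The edgeR test called 25% of genes simulated with a log2 change of 0.5, 77.3% with 1 and 93.9% with 2. That simulation gave 137 calls in all, and with more calls the adjustment lets a weaker p pass. It also gave all groups the same spread. These shares are therefore not those of the test on the real counts. That few genes were called thus does not show that few differed. All 5 libraries at 24 h lay above all 5 at 6 h in 112 genes (0.818%) and below them in 133 (0.972%). DESeq2 with an adjusted p under 0.05 called 46 genes higher (0.336%) and 76 lower (0.555%). edgeR fitted to all 30 libraries called 32 higher and 24 lower of 14089 genes tested.

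The called gene was Wdr6 (ENSMUSG00000066357), a WD-repeat protein that works with the methyltransferase Ftsj1 in ribose methylation of tRNA. Its level was 28.3, 30.4, 33.7, 35.8 and 26.1 CPM in 6 h replicates 1 to 5 and 21.02, 17.1, 21.1, 17.1 and 19.4 in 24 h replicates 1 to 5. Every 24 h library lay below every 6 h library, and the 22 °C libraries (31.8 ± 1.72 CPM, mean ± SD, n = 5) lay at the 6 h level. The mean fell from 30.9 ± 3.93 to 19.1 ± 2.01 CPM, a log2 change of -0.69 ± 0.10 (± approximate SE, adjusted p = 0.0311 by edgeR, 3.39e-07 by DESeq2). The call sat close to the threshold. It was lost when replicate 2 or 3 of the 6 h group was left out (adjusted p = 0.107 and 0.135 by edgeR) and when replicate 2, 4 or 5 of the 24 h group was (0.0879, 0.173 and 0.136). Leaving out any single 22 °C library gave 0.052 to 0.0689. It was also lost in a fit of the 10 cold libraries alone (0.144), while its log2 change stayed between -0.75 and -0.63 in these fits.

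Dalrd3 (ENSMUSG00000019039), which pairs with the enzyme Mettl2 in methylation of arginine tRNAs, lies beside Wdr6 with overlapping exons on the opposite strand in the annotation at hand, which is of an earlier genome build than the files. The strand setting of the authors' counting is not given in the sources used here, so reads of the 2 genes cannot be told apart where they overlap. Dalrd3 was at 31.3, 25.3, 22.3, 23.1 and 25.9 CPM in the 6 h libraries and 21.3, 20.6, 20.9, 17.1 and 17.8 in the 24 h libraries. These did not overlap either, and the log2 change of -0.39 ± 0.11 had an adjusted p of 0.258 by edgeR. The other tRNA modification genes showed no such gap. Of 23 tested, 3 were lower at an unadjusted p under 0.05, the third being Mettl6 (-0.19 ± 0.09), and the list median was -0.04. Of the 166 genes that the naming rule picked, 45 share exon sequence with a gene on the opposite strand. Rapgef4, Nfkb2, Chsy1, Cxcl10, Rbm3, Mt2, Mccc1, Jun, Srebf1, Hk1, Dio2, Elovl3, Cars2, Slc6a6, Tnc, Krt10, Nr1d1 and Dbp are among those given below, and part of their reads may belong to the partner.

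**Figure D1:**
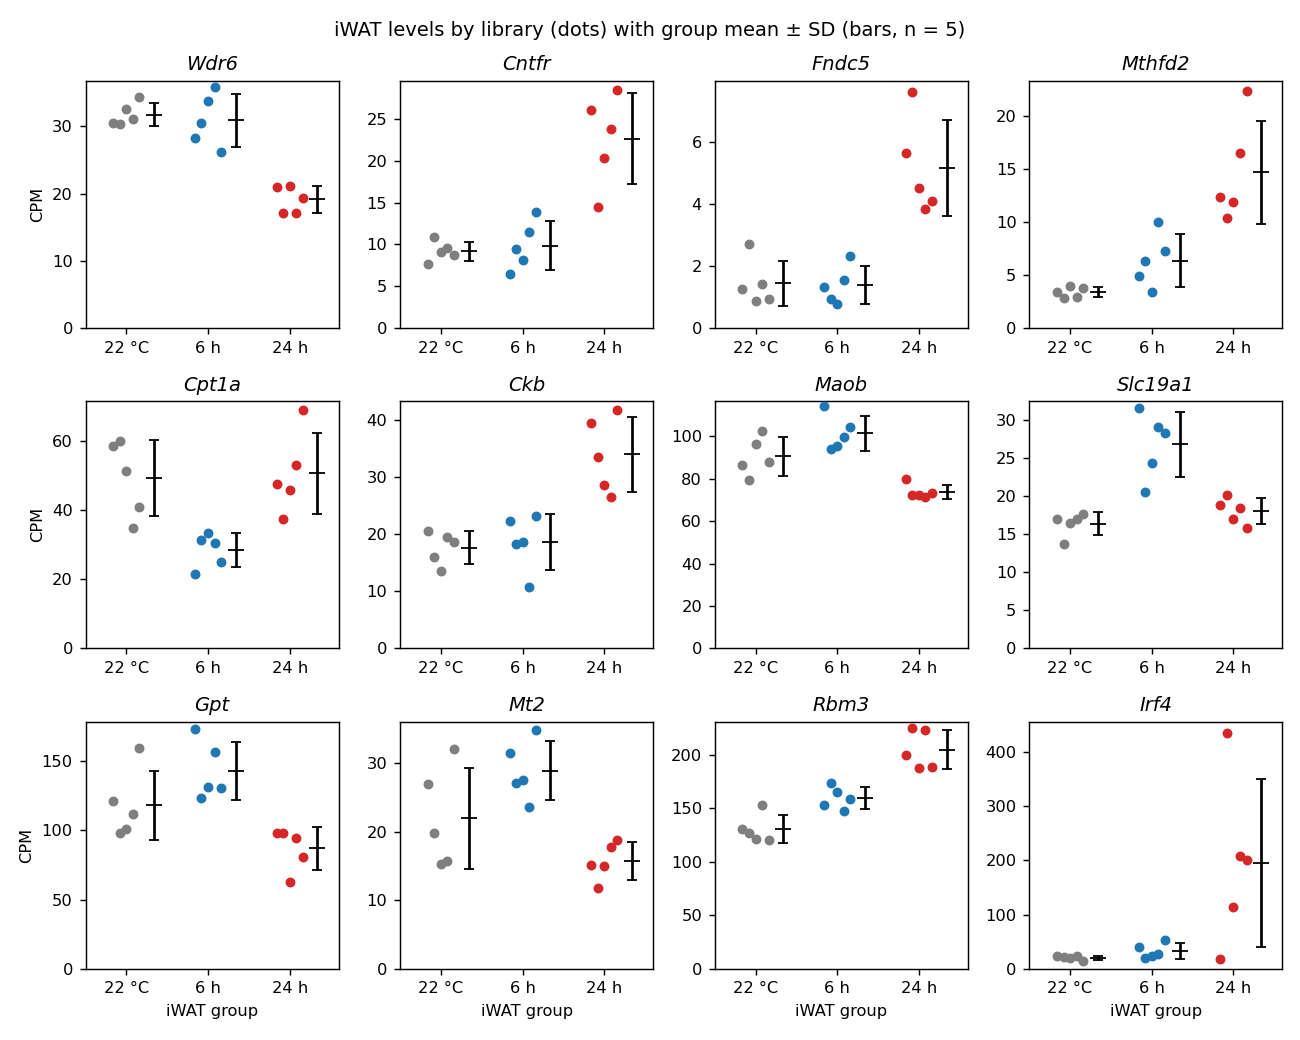
Level in CPM of 12 genes in each iWAT library (dots; grey 22 °C, blue 6 h, red 24 h at 6 °C), with the group mean ± SD (black bars, n = 5), on linear axes from 0. The 24 h libraries lie wholly below the 6 h libraries for Wdr6, Maob, Slc19a1, Gpt and Mt2 and wholly above them for Cntfr, Fndc5, Mthfd2, Cpt1a, Ckb and Rbm3, while for Irf4 replicate 1 of 24 h lies at 17.2 CPM, below the 6 h libraries.

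Of the genes without overlap between the groups, 73 higher and 114 lower ones, Wdr6 among them, had an unadjusted p under 0.05 and reached a mean of 5 CPM in 1 of the cold groups. The 12 of smallest p on each side are given here, leaving out predicted genes and clones. Apart from Wdr6 they missed the threshold of edgeR's test (adjusted p = 0.0933 to 0.178 for the higher and 0.0933 to 0.147 for the lower genes), and DESeq2 called all 23. They were picked for not overlapping, so that the groups stand apart is no finding about them.

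The higher genes included the following enzymes and a pump. Cpt1a (ENSMUSG00000024900), which carries out the first step of fatty acid import into mitochondria, was at 21.4, 31.2, 33.3, 30.5 and 25.04 CPM at 6 h and 47.5, 37.3, 45.8, 53.1 and 68.9 at 24 h, with 49.1 ± 10.98 at 22 °C. Its level was thus lowest at 6 h, and the 24 h libraries lay in the range of the 22 °C libraries (34.8 to 59.9) or above it (log2 change 0.84 ± 0.18). Ckb (ENSMUSG00000001270), the creatine kinase of the creatine cycle, was at 22.2, 18.3, 18.7, 10.7 and 23.2 CPM at 6 h and 39.5, 33.6, 28.6, 26.6 and 41.7 at 24 h (0.87 ± 0.18). Atp2a3 (ENSMUSG00000020788), a calcium pump of the endoplasmic reticulum, was at 16.97, 21.6, 18.3, 16.3 and 16.8 CPM at 6 h and 24.1, 23.5, 36.97, 29.2 and 36.3 at 24 h (0.74 ± 0.15). Mthfd2 (ENSMUSG00000005667), a folate enzyme of the mitochondrial matrix, was at 4.88, 6.28, 3.38, 10.04 and 7.26 CPM at 6 h and 12.3, 10.4, 11.9, 16.5 and 22.3 at 24 h (1.21 ± 0.25). For Ckb and Atp2a3 the 22 °C means (17.6 ± 2.83 and 19.02 ± 3.46 CPM) lay near the 6 h means, while Mthfd2 was lowest at 22 °C (3.401 ± 0.507 CPM).

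Others code for receptors and signalling proteins. Cntfr (ENSMUSG00000028444), the receptor subunit that binds ciliary neurotrophic factor, was at 6.44, 9.42, 8.098, 11.5 and 13.8 CPM at 6 h and 26.1, 14.4, 20.4, 23.9 and 28.5 at 24 h (1.20 ± 0.20). Fndc5 (ENSMUSG00000001334), the precursor of the secreted peptide irisin, was at 1.34, 0.945, 0.787, 1.55 and 2.33 CPM at 6 h and 5.67, 7.64, 4.54, 3.86 and 4.11 at 24 h (1.89 ± 0.34). Rapgef4 (ENSMUSG00000049044), a cyclic AMP sensor that activates Rap, was at 2.27, 3.51, 2.89, 3.32 and 3.59 CPM at 6 h and 5.53, 5.96, 5.77, 5.898 and 6.08 at 24 h (0.91 ± 0.16). All 3 had 22 °C means near those of 6 h (9.17 ± 1.17, 1.44 ± 0.739 and 4.03 ± 0.657 CPM). Nfkb2, an NF-kappaB subunit, had 8.65 ± 0.699 CPM at 6 h and 12.4 ± 0.805 at 24 h (0.51 ± 0.10), with 13.6 ± 1.57 at 22 °C. The last 4 were the splicing regulator Tra2a (0.39 ± 0.09), the fibrillar collagen Col27a1 (0.89 ± 0.21), the DNA-binding protein Gmeb1 (0.60 ± 0.14) and the zinc finger protein Zfp869 (0.33 ± 0.07). For 10 of the 12 higher genes the 22 °C mean was nearer to the 6 h mean than to the 24 h mean. The share over all tested genes was not computed, so this count describes the 12 genes only.

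The lower genes included the following enzymes. Gpt (ENSMUSG00000022546), alanine aminotransferase, was at 173, 124, 132, 157 and 130.4 CPM at 6 h and 98.4, 98.3, 62.99, 94.4 and 80.5 at 24 h (-0.72 ± 0.15). Pepd (ENSMUSG00000063931), a dipeptidase that frees proline, was at 177, 145, 107, 128 and 144 CPM at 6 h and 86.1, 106, 68.9, 65.04 and 65.4 at 24 h (-0.84 ± 0.18). Maob (ENSMUSG00000040147), a monoamine oxidase of the outer mitochondrial membrane, was at 114, 93.95, 95.4, 99.6 and 104 CPM at 6 h and 79.9, 72.3, 72.4, 71.2 and 73.1 at 24 h (-0.46 ± 0.08). In Maob 4 of the 5 libraries at 24 h lay within 71.2 to 73.1 CPM. Gda, guanine deaminase, had 235 ± 27.9 CPM at 6 h and 174 ± 15.9 at 24 h (-0.44 ± 0.09), and Suox, sulphite oxidase, 32.98 ± 2.55 and 23.6 ± 1.66 (-0.48 ± 0.09). Gstm7, a glutathione transferase, had the largest log2 change of the 12 (-1.18 ± 0.23), from 7.99 ± 2.54 to 3.53 ± 0.855 CPM.

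Slc19a1 (ENSMUSG00000001436), the reduced folate carrier, was at 31.6, 20.6, 24.5, 29.1 and 28.4 CPM at 6 h and 18.9, 20.2, 16.99, 18.5 and 15.8 at 24 h (-0.57 ± 0.11). Its 22 °C mean of 16.4 ± 1.53 CPM lay near the 24 h mean, so the 6 h libraries were the high ones. The same order held for Gda, with 166 ± 10.4 CPM at 22 °C. Trpv1, the ion channel opened by heat and capsaicin, had 16.4 ± 2.78 CPM at 6 h and 10.2 ± 2.06 at 24 h (-0.69 ± 0.14), below the 22 °C libraries (18.5 ± 1.42 CPM). The chemokine Cxcl10 had 7.504 ± 0.987 and 4.799 ± 0.566 CPM (-0.64 ± 0.13), the chondroitin synthase Chsy1 23.3 ± 3.499 and 15.7 ± 1.96 (-0.57 ± 0.11), and the RNA-binding protein Rbms2 139 ± 10.6 and 104 ± 3.96 (-0.43 ± 0.08). For 7 of the 12 lower genes, Wdr6 included, the 22 °C mean was nearer to the 6 h mean than to the 24 h mean. This count too was not set against all tested genes.

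The gene lists were read by their counts against the background given above, in which 4.3% of tested genes were higher and 5.57% lower at an unadjusted p under 0.05. In the 36 lists edgeR called no gene but Wdr6, so the counts in the next paragraphs are unadjusted and their members' values are descriptions. Over all tested genes 0.818% were higher and 0.972% lower without overlap. The median log2 change over all genes was -0.00055.

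Of 22 tested genes of branched-chain amino acid catabolism, none was higher and 10 were lower, with a median of -0.21 and 19 of 22 values below 0. Mccc1 and Mccc2, the subunits of methylcrotonyl-CoA carboxylase in leucine breakdown, did not overlap between the groups. Mccc1 was at 279.7, 248, 253, 234 and 254 CPM at 6 h and 224, 222, 189, 178 and 191 at 24 h (-0.34 ± 0.09, adjusted p = 0.214 by edgeR). Mccc2 was at 159, 165, 153, 135 and 149 and 123, 132, 119, 103 and 116 CPM (-0.36 ± 0.10, adjusted p = 0.214 by edgeR). Ivd, the isovaleryl-CoA dehydrogenase one step earlier in the pathway, had 502 ± 80.6 and 379 ± 48.2 CPM (-0.41 ± 0.13). For all 3 the 22 °C means (205 ± 20.1, 132 ± 17.6 and 414 ± 46.1 CPM) lay near those of 24 h.

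Of 22 genes of de novo lipogenesis, none was higher and 4 were lower (median -0.22, 19 of 22 below 0). The median was -0.03 without 6 h replicate 4 and -0.35 without 24 h replicate 2. The 4 included the regulators Srebf1 (363 ± 70.1 CPM at 6 h, 253 ± 74 at 24 h, log2 change -0.52 ± 0.17) and Thrsp (2599 ± 701 and 1711 ± 693 CPM, -0.60 ± 0.24) and the elongase Elovl5 (-0.22 ± 0.09). The fatty acid synthase Fasn was at 7198, 5627, 5672, 12293 and 7546 CPM at 6 h and 5699.7, 9899.7, 3361, 7711 and 3966 at 24 h. Its groups overlapped widely (-0.32 ± 0.28, adjusted p = 0.758 by edgeR), with 6 h replicate 4 the highest of the 10. Dgat2, which makes triglyceride, was the 1 of 24 genes of fatty acid uptake and triglyceride synthesis that was lower (-0.39 ± 0.16), and none was higher.

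Of 12 adipocyte markers, none was higher and 5 were lower (median -0.22, 11 of 12 below 0). The fat-derived hormone leptin, Lep, was at 474, 315, 929, 274 and 428 CPM at 6 h and 249, 177, 169, 209.9 and 455 at 24 h (-0.94 ± 0.34, adjusted p = 0.366 by edgeR). The groups overlapped through 24 h replicate 5, and without 6 h replicate 3 the log2 change was -0.56. Adiponectin, Adipoq, was at 5036, 3219, 3313, 2078 and 3236 CPM at 6 h and 2599.8, 2365, 2447, 2179 and 3024 at 24 h (-0.42 ± 0.18), with 6 h replicate 1 far above the rest. Cidec, which fuses lipid droplets, had 2718 ± 434 and 2029.9 ± 357 CPM (-0.42 ± 0.14), and Pparg, the master regulator of adipocytes, 260.5 ± 38.6 and 213 ± 7.599 (-0.29 ± 0.12). The fifth was the complement factor Cfd (-0.59 ± 0.26), named after its values were seen. Macrophage markers lay on the other side, with 2 of 15 higher, none lower, a median of 0.26 and 13 of 15 values above 0. They were the macrophage surface protein Adgre1 (12.1 ± 1.902 CPM at 6 h, 18.2 ± 5.75 at 24 h, 0.59 ± 0.23) and Mertk, a receptor for the uptake of dying cells (0.41 ± 0.18). The summed macrophage level was 434 to 875 CPM at 6 h and 573 to 896 at 24 h. The part of macrophage RNA in the other differences was not tested.

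The genes of cyclic AMP response and stress had more higher than lower values. Of 26 immediate early and cyclic AMP-responsive genes, 5 were higher and none lower (median 0.37, 23 of 26 above 0). The transcription factor Jun was at 18.8, 20.96, 24, 21.2 and 27.9 CPM at 6 h and 28.1, 31.4, 24.9, 36 and 45.1 at 24 h (0.55 ± 0.14, adjusted p = 0.196 by edgeR), and Ier5, a short-lived nuclear protein, at 6.03, 5.197, 4.85, 5.21 and 6.12 and 7.89, 6.2, 6.79, 9.17 and 13.4 CPM without overlap (0.66 ± 0.22). The value of Fos rested on 1 library. It was at 2.63, 1.44, 2.16, 2.41 and 27.9 CPM in 24 h replicates 1 to 5 and 0.931, 3.68, 1.48, 1.55 and 0.933 at 6 h (2.08 ± 0.75). Without 24 h replicate 5 its log2 change was 0.33. Sik1, a kinase induced by cyclic AMP (0.69 ± 0.25), and Fosb (2.81 ± 1.11) completed the 5 and were named after their values were seen. The list score (mean log2 CPM of its members) at 24 h ran from 3.26 to 4.21 with replicate 5 highest, and the 6 h scores from 2.90 to 3.52.

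Of 26 genes of the integrated stress response and amino acid supply, 9 were higher and 3 lower (median 0.13, and 0.06 without 24 h replicate 5). Mthfd2, described above, was the 1 member without overlap. The stress hormone Gdf15 was at 0, 0.54, 0.197, 0.546 and 0.874 CPM at 6 h and 1.92, 1.36, 0.427, 4.13 and 7.61 at 24 h (2.81 ± 0.75, adjusted p = 0.212 by edgeR and 0.021 by DESeq2). Fgf21, a hormone of fasting and cold, was at 0.633, 0.337, 0.0656, 1.596 and 3.32 CPM at 6 h and 3.41, 0.598, 0.641, 6.11 and 10.2 at 24 h (1.80 ± 0.83, adjusted p = 0.489 by edgeR). Both hormones were near the lower end of detection, and in both 24 h replicates 4 and 5 were the highest libraries. The secreted glycoprotein Stc2 had 17.2 ± 7.62 CPM at 6 h and 9.42 ± 2.32 at 24 h (-0.87 ± 0.26). Of 18 adipokines and secreted factors 3 were higher and 4 lower. Vegfa, the growth factor of vessels, was at 331, 494, 466, 513 and 502 CPM at 6 h and 544, 538, 558, 571 and 611 at 24 h without overlap (0.29 ± 0.11, adjusted p = 0.374 by edgeR). Heat shock proteins of the cytosol had no member past an unadjusted p of 0.05 (18 tested, median 0.16), nor had the unfolded protein response of the endoplasmic reticulum (20 tested, 0.01).

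In the creatine and calcium cycling list 3 of 11 tested genes were higher without overlap (0.818% of all tested genes were) and 1 was lower. Ckb and Atp2a3 were among the genes picked above for not overlapping. Beside Ckb and Atp2a3 the third was Alpl, the tissue-nonspecific alkaline phosphatase, which splits phosphocreatine in mitochondria of beige fat. Alpl was at 4.88, 3.04, 1.54, 7.85 and 5.68 CPM at 6 h and 11.9, 7.89, 9.96, 8.31 and 14.5 at 24 h (1.20 ± 0.31, adjusted p = 0.203 by edgeR). The lower gene was Gamt, the last enzyme of creatine synthesis (8.83 ± 3.58 CPM at 6 h and 4.75 ± 1.71 at 24 h, -0.90 ± 0.29), named after its values were seen. The list median was 0.24.

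The cold-shock RNA-binding protein Rbm3 was at 153, 174, 165, 147 and 159 CPM at 6 h and 199.5, 225, 188, 223 and 188 at 24 h, with 131 ± 13.3 at 22 °C. Its groups did not overlap (0.36 ± 0.09, adjusted p = 0.196 by edgeR, 0.0205 by DESeq2). Its relative Cirbp had 43.9 ± 7.26 and 42.2 ± 6.57 CPM (-0.06 ± 0.15). Of 17 glucocorticoid-responsive genes 1 was higher and 2 lower. The lower ones were the metallothioneins, metal-binding proteins. Mt1 was at 130.2, 70.8, 66.9, 71.6 and 100.2 CPM at 6 h and 60.7, 61.5, 48.7, 48.04 and 56.6 at 24 h (-0.68 ± 0.17, adjusted p = 0.196 by edgeR), and Mt2 at 31.5, 27.1, 27.5, 23.6 and 34.8 and 15.1, 11.7, 15.04, 17.8 and 18.8 (-0.88 ± 0.19, 0.147). Neither overlapped between the groups. The higher one was the transcription factor Zbtb16 (48.6 ± 17.1 CPM at 6 h, 99.9 ± 37.02 at 24 h, 1.04 ± 0.31).

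Since the clock hour of sampling is not given, the clock genes are shown beside these results. Of 18 tested, 1 was higher and 3 lower at an unadjusted p under 0.05 by edgeR, and DESeq2 called 1 lower, with a median of -0.14 and values from -0.54 to 0.34. Cry1, a repressor of the clock, had 17.5 ± 3.46 CPM at 6 h and 12.7 ± 1.17 at 24 h (-0.46 ± 0.12), and the nuclear receptor Nr1d2 168 ± 23.6 and 212 ± 20.9 (0.34 ± 0.10). Hlf, a transcription factor named after its values were seen, was also lower (-0.32 ± 0.15). The other clock genes included Dbp (77.7 ± 12.1 and 70.03 ± 14.6 CPM, -0.15 ± 0.13), Nr1d1 (116 ± 6.54 and 117 ± 18.4 CPM, 0.01 ± 0.11) and Per1 (83.1 ± 13 and 93.9 ± 9.65 CPM, 0.18 ± 0.13). None of the 3 passed an unadjusted p of 0.05.

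Few markers of other cell types passed an unadjusted p of 0.05. Of 16 markers of adipose progenitors and fibroblasts 1 was higher (Icam1, 0.38 ± 0.18, at 12.3 CPM in 24 h replicate 4 and 7.38 to 7.8 in the other 24 h libraries) and 1 lower (F3, tissue factor, -0.44 ± 0.14). Of 10 mural and smooth muscle markers 2 were lower, the pericyte genes Rgs5 (-0.41 ± 0.16) and Cspg4 (-0.34 ± 0.16). Of the 3 tested epithelial and skin markers 2 were lower, the keratin Krt10 (-0.45 ± 0.19) and the prolactin receptor Prlr (-0.53 ± 0.21). None of 13 endothelial, 15 lymphocyte, 6 skeletal muscle, 7 blood cell, 8 nerve and 6 neutrophil and monocyte markers passed an unadjusted p of 0.05, nor did any of 10 markers of brown fat position and identity. Of 20 proliferation genes 2 were higher, the mitotic kinase Aurkb, without overlap and at under 1 CPM in all cold libraries (1.05 ± 0.33), and Tyms, which makes thymidylate (0.60 ± 0.16). Of 22 collagen and matrix genes 1 was lower, the matrix glycoprotein Tnc (8.16 ± 1.92 CPM at 6 h, 4.16 ± 1.08 at 24 h, -0.97 ± 0.25). Of 20 genes of cholesterol synthesis and uptake 2 were lower (Fdft1, -0.27 ± 0.11, and Ebp, -0.33 ± 0.14). Of 21 genes of lipolysis and beta-adrenergic signalling 2 were higher and none lower, while 5 of 21 values lay above 0 and the median was -0.02. One was the adenylyl cyclase Adcy4, which makes cyclic AMP, without overlap (17.4 ± 1.32 CPM at 6 h, 21.9 ± 2.35 at 24 h, 0.34 ± 0.10).

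The heat-producing programme itself was read against the same shares at an unadjusted p under 0.05, 4.3% of all tested genes higher and 5.57% lower. Of 27 thermogenic adipocyte genes 3 were higher and none lower, with a median of 0.37 and 21 of 27 values above 0. The median was 0.14 without 6 h replicate 1 and 0.67 without 6 h replicate 4. The 3 were Irf4, a transcription factor that partners Ppargc1a, the nuclear receptor Esrrg and the coactivator Ppargc1b. Irf4 was at 39.9, 19.2, 23.8, 27.1 and 53.7 CPM at 6 h and 17.2, 434, 114, 208 and 201 at 24 h (2.57 ± 0.53, adjusted p = 0.144 by edgeR). In 4 of the 5 libraries at 24 h it lay above all 6 h libraries, and in 24 h replicate 1 below all of them. Esrrg was at 4.24, 7.795, 6.85, 19.02 and 14.9 CPM at 6 h and 24.1, 19.7, 20.1, 23.8 and 21.5 at 24 h without overlap (1.05 ± 0.43, adjusted p = 0.437 by edgeR). Ppargc1b had 18.2 ± 6.34 and 26.9 ± 5.29 CPM (0.56 ± 0.25). Fabp3, a fatty acid carrier named after its values were seen, also had no overlap (152 ± 166 CPM at 6 h and 621 ± 257 at 24 h, 2.03 ± 0.96, unadjusted p = 0.051 by edgeR).

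No nuclear-encoded gene of the respiratory chain and ATP synthase (38 tested) and no mitochondrially encoded gene (13 tested) passed an unadjusted p of 0.05, with medians of 0.01 and -0.18. All 13 mitochondrially encoded values lay below 0, from -0.28 to -0.06. Leaving out 6 h replicate 3 moved these medians to -0.11 and -0.30. Of 18 tricarboxylic acid cycle genes none was higher and 3 were lower, namely Suclg2 (-0.29 ± 0.10, no overlap), Idh2 (-0.30 ± 0.10) and Pcx (-0.31 ± 0.14). Of 26 fatty acid oxidation genes 2 were higher, Cpt1a and the thioesterase Acot2 (40.4 ± 14.3 CPM at 6 h, 77.5 ± 26.7 at 24 h, 0.94 ± 0.24), and none lower. Of 24 genes of glucose uptake and glycolysis 1 was higher (Hk1, 0.41 ± 0.19) and 2 lower, the kinase Pdk1, which holds back pyruvate dehydrogenase (-0.54 ± 0.15), and Pfkfb3 (-0.36 ± 0.16).

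The libraries of 6 h lay farther from their group on average than those of 24 h, by a difference that missed the threshold of its test. The distance of a library from its group was taken as the median over genes of the absolute log2 difference from the mean of the other 4 libraries. It was 0.287, 0.155, 0.232, 0.246 and 0.172 for 6 h replicates 1 to 5 and 0.178, 0.16, 0.202, 0.147 and 0.154 for 24 h replicates 1 to 5. Replicates 1, 3 and 4 of 6 h lay above all 24 h libraries, and 6 h replicates 2 and 5 lay within the 24 h range. The means of 0.218 ± 0.0543 and 0.168 ± 0.0221 (SD, n = 5) differed by 0.0504, with p = 0.0952 by a two-sided exact permutation test over all ways to split the 10 libraries, whose smallest possible p is 0.00794. Leaving out 1 library gave differences of 0.0338 to 0.0791. Of the 10 exact p values so obtained 3 were under 0.05, namely 0.0238, 0.0397 and 0.0476 with 6 h replicate 2, 5 or 4 left out, and the other 7 were 0.103 to 0.222. Replicates 2 and 5 were the 6 h libraries nearest to their group. After a library is left out, the others of its group are set against a mean of fewer libraries. The libraries of a group also enter each other's means, so their distances are not independent.

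The distances at 22 °C averaged 0.172 ± 0.0483 in iWAT, with 1 library at 0.256. In BAT they averaged 0.138 ± 0.0145 at 22 °C, 0.178 ± 0.0424 at 6 h and 0.161 ± 0.016 at 24 h (SD, n = 5).

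**Figure D2:**
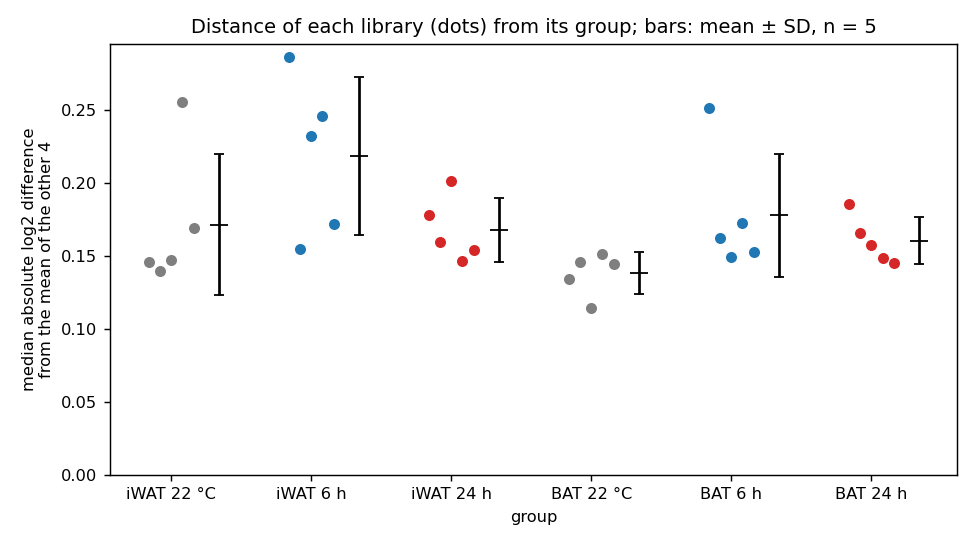
Distance of each of the 30 libraries from its group (dots; median over genes of the absolute log2 difference from the mean of the other 4 libraries), with the group mean ± SD (bars, n = 5), on an axis from 0. In iWAT the 6 h libraries run from 0.155 to 0.287 and the 24 h libraries from 0.147 to 0.202.

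Gene by gene, the median standard deviation of log2 CPM over 5 libraries was 0.262 at 6 h and 0.197 at 24 h, against 0.208 at 22 °C. In BAT it was 0.207 at 6 h and 0.185 at 24 h. The common biological coefficient of variation that edgeR estimates was 0.229 at 6 h and 0.196 at 24 h in iWAT, and in BAT it had the opposite order, 0.199 and 0.25. In iWAT 9133 of 13689 genes (66.7%) had the larger standard deviation at 6 h, and in BAT 55.0% of 13090. The ratio of the standard deviation at 6 h to that at 24 h had a median of 1.28 in iWAT and 1.07 in BAT. Without 6 h replicate 1 the iWAT median was 1.11, and without 24 h replicate 3 it was 1.41. The share with the larger standard deviation at 6 h was higher in genes of higher mean level. In 4 classes of equal size it was 57.0% in the lowest, 62.9% and 70.4% in the next ones and 76.6% in the highest. Of the 13689 genes, the standard deviation was at least 2 times larger at 6 h in 2855 and at 24 h in 780.

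No single gene passed a test of its spread (limma on absolute deviations from the group mean, adjusted p of 0.274 or more, 0%). At an unadjusted p under 0.05, 899 genes (6.57%) were wider at 6 h and 290 (2.12%) at 24 h. On simulated libraries of equal spread this test gave more than its nominal share of unadjusted p under 0.05, so these counts are no evidence of unequal spread by themselves. With 5 libraries a group it also recovered few or none of the genes simulated with a wider spread, so that no gene was called does not show that spreads were equal.

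Which library stood apart differed by gene. A library was counted as standing apart in a gene when Dixon's ratio, its distance from the closest other library as a share of the whole range, passed the 95% critical value for 5 values. At 6 h this held in 785 genes (5.73% of those tested), and in 341 of them the library was replicate 1, in 165 replicate 4, in 160 replicate 3, in 63 replicate 2 and in 56 replicate 5. At 24 h it held in 738 genes (5.39%), in 238 of them through replicate 3 and in 103 to 161 through each other replicate. With 5 equal libraries Dixon's value is passed by about 1 group in 20, so both totals were near that share.

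The thermogenic genes and the tricarboxylic acid cycle had the highest ratios of spread among the lists with at least 10 tested members. Counts of list members wider at 6 h stand against 66.7% of all tested genes and 76.6% of the class of highest mean level. Of 27 thermogenic genes tested, 23 had the larger standard deviation at 6 h, and the median ratio was 3.35 (2.94 to 3.85 when 1 library was left out). The 6 h replicates 4 and 5 lay above the other 3 libraries of 6 h in 20 of the 27 genes. Replicate 3 was the lowest in 17 and replicate 1 in 7. The list score was 4.81, 5.41, 4.67, 6.54 and 6.47 in 6 h replicates 1 to 5 and 6.19, 6.11, 5.99, 6.299 and 6.58 in 24 h replicates 1 to 5, against 3.35, 4.07, 4.92, 5.07 and 2.999 at 22 °C. The scores of 6 h replicates 1 and 3 lay below those of 2 libraries at 22 °C, and the scores of 6 h replicates 4 and 5 lay within the 24 h range. The SD of the score was 0.920 at 22 °C, 0.891 at 6 h and 0.225 at 24 h. The 22 °C libraries thus spread as widely as those of 6 h, and those of 24 h less.

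Ucp1 (ENSMUSG00000031710) was at 704, 1980.3, 537, 4704 and 5176 CPM in the 6 h libraries and 4162, 2616, 2736, 3583 and 4621 in the 24 h libraries. The 6 h libraries thus held the lowest and the highest values of the 10, and the log2 change of the means was 0.44 ± 0.83 (adjusted p = 0.907 by edgeR). Its standard deviation of log2 CPM was 4.17 times larger at 6 h (adjusted p = 0.418 for the spread by limma). Dio2 (ENSMUSG00000007682) was at 118, 210.1, 95.7, 572 and 588 CPM at 6 h and 291, 223, 172, 264 and 265 at 24 h, with a ratio of 4.105. All 24 h libraries lay above 6 h replicates 1 and 3 and below 6 h replicates 4 and 5. Cidea, a lipid droplet protein of brown and beige fat, was at 222, 467, 149, 786 and 759 CPM at 6 h and 736, 584, 557, 518 and 750.4 at 24 h (4.42). Ppargc1a was at 46.5, 74.7, 44.8, 218 and 196 CPM at 6 h and 121, 118, 78.6, 179 and 180.0 at 24 h (2.22). The elongase Elovl3 had a ratio of 2.302 and Pdk4, which holds back the use of glucose, one of 2.77. In all 6 genes 6 h replicates 4 and 5 were the highest of their group.

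**Figure D3:**
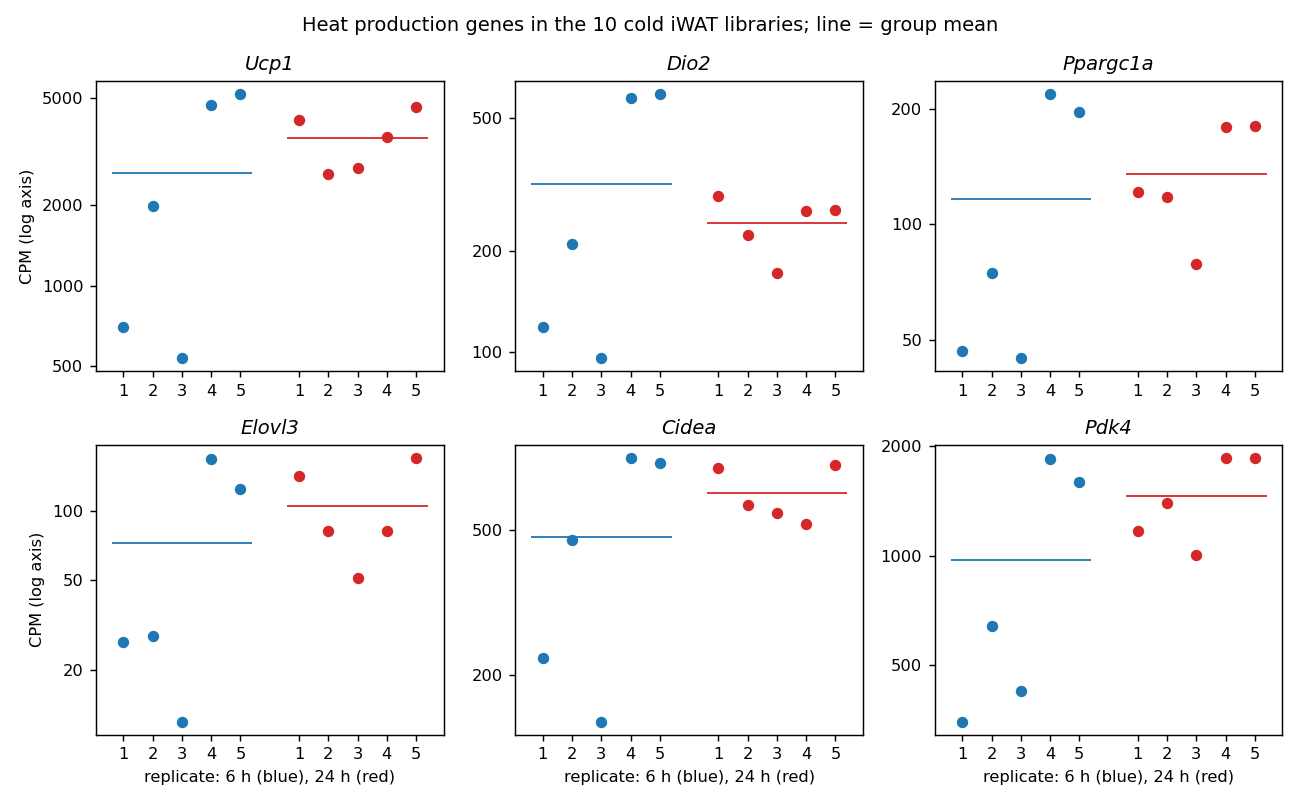
Level in CPM (log axes) of 6 genes of heat production and fuel choice in each 6 h (blue) and 24 h (red) iWAT library, by replicate number, with a line at the group mean (n = 5). In every panel 6 h replicates 4 and 5 lie well above 6 h replicates 1 to 3, and the 24 h libraries lie closer together.

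Lists of mitochondrial genes were wider at 6 h than at 24 h too, while at 22 °C their scores spread about as at 6 h. The SD of the list score at 22 °C, 6 h and 24 h was 0.392, 0.302 and 0.165 for the nuclear-encoded respiratory chain. It was 0.304, 0.301 and 0.0903 for the tricarboxylic acid cycle and 0.304, 0.318 and 0.146 for mitochondrially encoded genes. For fatty acid oxidation it was 0.3555, 0.307 and 0.122. In each, replicate 4 was the highest 22 °C library. The respiratory chain scores at 22 °C were 7.51, 7.52, 7.63, 8.38 and 7.43 in replicates 1 to 5, so their SD rested largely on replicate 4. The SDs at 22 °C without that library were not computed. All 38 nuclear-encoded genes of the respiratory chain and ATP synthase had the larger standard deviation at 6 h, with a median ratio of 1.81. In 37 of the 38 the lowest 6 h library was replicate 3, and in 28 the lowest 24 h library was also replicate 3. The list score was 8.52, 8.39, 7.84, 8.46 and 8.595 at 6 h and 8.53, 8.56, 8.19, 8.25 and 8.4 at 24 h. Without 6 h replicate 3 the count was 18 of 38 and the median ratio 0.948, so the wider spread of this list rested on that library. In the tricarboxylic acid cycle 15 of 18 genes were wider at 6 h (83.3%, against 66.7% of all tested genes). The median ratio was 3.22 (2.21 without 6 h replicate 3, 4.14 without 24 h replicate 1), and replicate 3 was the lowest 6 h library in 16 of the 18. Mitochondrially encoded genes had 12 of 13 wider at 6 h and a ratio of 2.21 (1.46 without 6 h replicate 3). ND4, a subunit of complex I, was at 18304, 13223, 9279, 12701 and 11271 CPM at 6 h and 10809.8, 11062, 9794, 11712 and 11075 at 24 h. Replicate 1 was the highest 6 h library in 8 of the 13 and replicate 3 the lowest in 10. In fatty acid oxidation 24 of 26 genes were wider at 6 h (1.91, and 1.24 without 6 h replicate 3).

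All 24 tested ribosomal protein genes of the cytosol had the larger standard deviation at 6 h (median ratio 2.23). The SD of their list score was 0.279 at 22 °C, 0.250 at 6 h and 0.104 at 24 h. At 22 °C the scores were 7.82, 7.72, 7.49, 8.22 and 7.6 in replicates 1 to 5, with replicate 4 highest. Here replicate 1 was the highest 6 h library in 20 and replicate 4 the lowest in 22, while at 24 h replicate 3 was the lowest in 16. Genes of this family have many near-identical pseudogene copies, so their counts are uncertain. Rplp0 was at 530.5, 417, 409, 352 and 443 CPM at 6 h and 379.9, 382, 380.1, 361 and 402 at 24 h. Leaving out 6 h replicate 4 gave 19 of 24 and a ratio of 1.67. Of 24 genes of glucose uptake and glycolysis 19 were wider at 6 h (79.2%). This count was near the 76.6% of all genes in the class of highest mean level. The median ratio was 2.17, and 1.56 without 6 h replicate 4. In the 24 genes 6 h replicate 4 was the highest in 18 and 6 h replicate 3 the lowest in 16. At 24 h replicate 3 was the lowest in 14 of them. The SD of the glycolysis score was 0.170 at 22 °C, 0.383 at 6 h and 0.111 at 24 h. The blood cell markers were wider at 6 h in all 7 tested genes (2.69), with list scores of 4.14, 3.08, 3.06, 3.09 and 3.17 at 6 h and 3.48, 3.33, 3.2, 3.48 and 3.41 at 24 h. The high library there was again 6 h replicate 1, and the ratio was 1.57 without it. The part of blood cell RNA in the distance of that library was not tested.

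Interferon-stimulated genes went the other way. Of 18 tested only 2 had the larger standard deviation at 6 h, and the median ratio was 0.51. In all 18 the highest 24 h library was replicate 4. The list score was 3.61, 4.03, 3.41, 4.85 and 3.85 in 24 h replicates 1 to 5 and 4.08, 3.64, 4.31, 3.98 and 3.98 at 6 h. Without 24 h replicate 4 the count was 9 of 18 and the ratio 1.02. Ifit2, an antiviral RNA-binding protein, was at 12.01, 17.9, 17.7, 41.3 and 20.6 CPM at 24 h and 15.2, 15.5, 18.3, 18.8 and 14.3 at 6 h. H2-Q7, a class I histocompatibility gene with near-identical relatives that make its counts uncertain, was also highest in that library, with 9.38, 19.1, 9.43, 30.3 and 9.33 CPM at 24 h and 13.4, 10.6, 11.97, 13.8 and 12.4 at 6 h. So was the macrophage marker Adgre1, with 28.2 CPM in 24 h replicate 4 and 14.4 to 17.6 in the others. Medians under 1 were also found in the lists of collagen and matrix (0.901), of adipose progenitors and fibroblasts (0.902), of mural and smooth muscle (0.818) and of de novo lipogenesis (0.971). Each of these directions turned when 1 library was left out, 24 h replicate 1 for mural (1.74) and for collagen (1.32) and 24 h replicate 3 for progenitors (1.08) and lipogenesis (1.29).

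**Figure D4:**
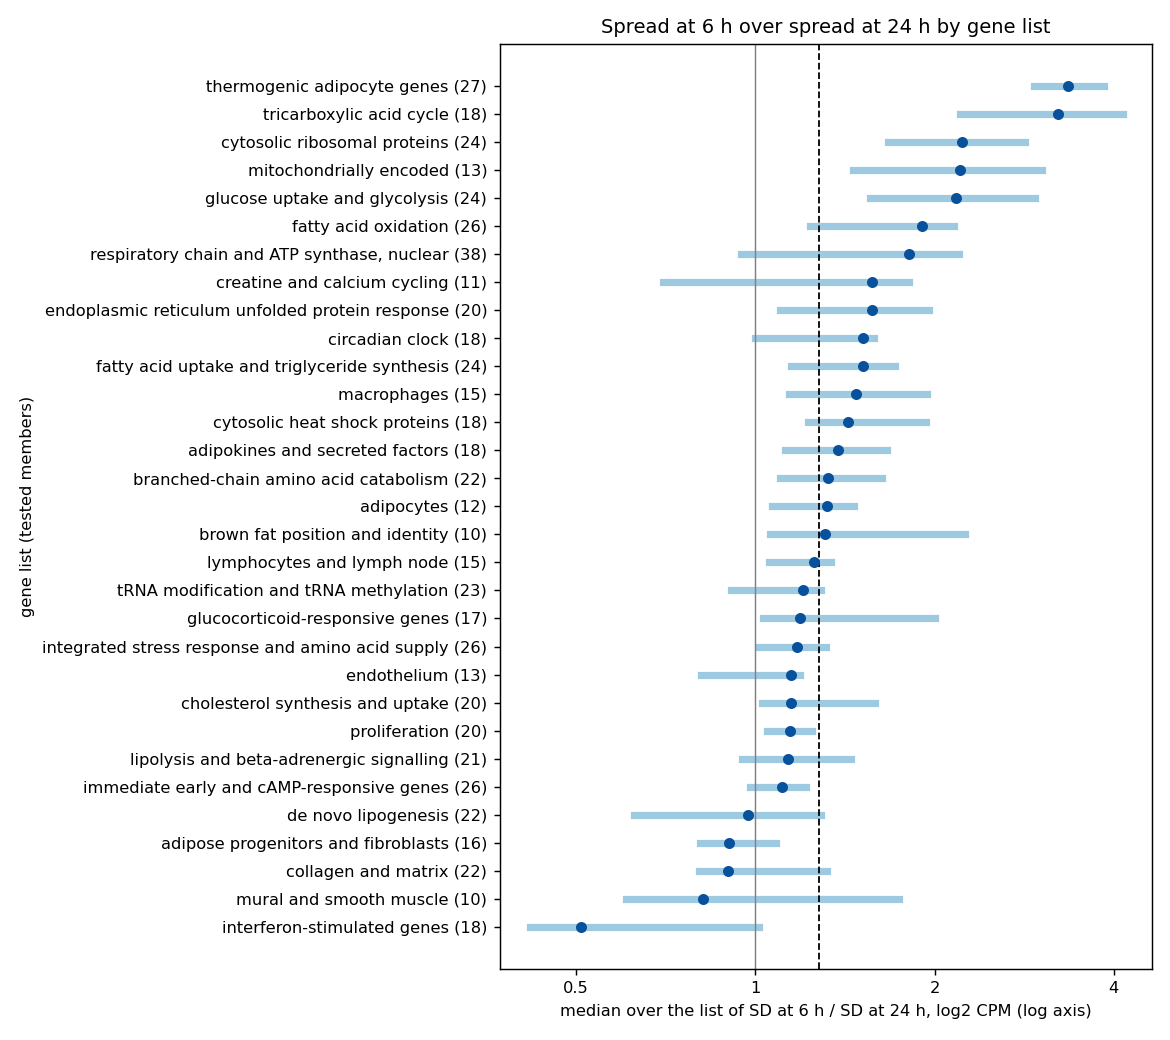
Median over the tested members of each list of the standard deviation of log2 CPM at 6 h divided by that at 24 h (dots, log axis), with the range when each cold library was left out in turn (light bars), for the 31 lists with at least 10 tested members. The dashed line marks the median of all genes (1.28) and the grey line 1. The thermogenic genes lie farthest right at 3.35 and the interferon-stimulated genes farthest left at 0.51.

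Among single genes the spread test had its smallest p values wider at 6 h in Hgf, Wscd2, Cpn2, Kng2, Cars2, Zfp511, Ak1 and Ctdspl2 (adjusted p = 0.274 to 0.321 by limma, none called). Kng2, a kininogen that is a source of kinin peptides, was at 0.484, 1.25, 0.59, 17.7 and 9.59 CPM at 6 h and 11.1, 9.63, 10.2, 14.5 and 24.6 at 24 h, with a ratio of 4.17. The 22 °C libraries were at 0.506 ± 0.0724 CPM, so 6 h replicates 1 and 3 lay at about the 22 °C level and replicate 4 in the 24 h range. Cars2, the mitochondrial cysteine tRNA ligase, was at 13.4, 14.4, 13.8, 32.4 and 29.6 CPM at 6 h and 26.5, 20.2, 22.1, 27.3 and 30.1 at 24 h. Ak1, an adenylate kinase, was at 10.98, 13.2, 10.2, 21.1 and 23.2 CPM at 6 h and 29.01, 25.7, 27.8, 27.5 and 31.4 at 24 h, where all libraries lay above those of 6 h. In Kng2, Cars2 and Ak1 6 h replicates 4 and 5 were the high libraries, as in the thermogenic genes. Hgf, a growth factor, did not follow that order, with 6.03, 3.54, 6.46, 6.17 and 3.09 CPM at 6 h and 4.69, 5.47, 4.92, 4.93 and 5.602 at 24 h.

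The smallest p values wider at 24 h belonged to Slc6a6, Kmt5c, H2-Q7, Mettl1, Otud1, Orai3, Apold1 and Pdlim1 (adjusted p = 0.274 to 0.416 by limma, none called). Slc6a6, the taurine transporter, was at 257, 129.6, 253, 123 and 127 CPM at 24 h, with replicates 1 and 3 apart from the other 3 libraries, and at 159, 166, 194, 208 and 154 at 6 h. The same 2 libraries were highest in Orai3, a subunit of store-operated calcium channels (23.04, 15.99, 21.9, 13.4 and 14.7 CPM at 24 h, 21.6, 19.7, 18.2, 19.9 and 20.3 at 6 h).

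The change between 6 h and 24 h was set against that in BAT of the same series by an interaction term in a fit of all 30 libraries. In that fit 715 of 14089 genes (5.07%) were higher and 724 (5.14%) lower at 24 h than at 6 h in BAT. The change in iWAT lay above that in BAT in 171 genes (1.21%) and below it in 272 (1.93%) at an adjusted p under 0.05 by edgeR. The 11 genes given here, 5 on the first side and 6 on the second, were named by smallest p and had iWAT log2 changes of -0.43 to 0.31 apart from Wdr6. In iWAT the 6 h and 24 h libraries did not overlap for Wdr6, Txndc5 and Il17rc. Wdr6 fell in iWAT as above and rose in BAT, from 15.5 ± 2.55 to 24.6 ± 3.73 CPM (log2 change 0.66 ± 0.11, adjusted p = 0.000373 by edgeR), with 30.3 ± 3.71 in BAT at 22 °C. The changes differed by -1.36 ± 0.16 (adjusted p = 3.53e-05 by edgeR).

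The heat shock proteins Hsp90aa1 and Hspa4l fell in BAT from their 6 h level, and in iWAT their 24 h means lay above those of 6 h. Hsp90aa1 had 413 ± 74.7 CPM at 6 h and 516 ± 78.5 at 24 h in iWAT, and 1454 ± 133 and 639 ± 87.1 in BAT. The changes differed by 1.5 ± 0.23 (adjusted p = 0.00064 by edgeR). For Hspa4l the difference was 1.34 ± 0.20, for Aph1b, a subunit of gamma-secretase, 0.98 ± 0.13, for Snapc3 0.91 ± 0.16 and for Ccar1 0.80 ± 0.13. On the other side, Cidec had 2718 ± 434 and 2029.9 ± 357 CPM in iWAT and 847 ± 75.7 and 1274 ± 38.8 in BAT, a difference of -1.02 ± 0.16 (adjusted p = 0.00064 by edgeR). The protein disulphide isomerases of the endoplasmic reticulum Txndc5 and Pdia6 rose in BAT. Txndc5 had 88.9 ± 10.1 and 69.3 ± 3.06 CPM in iWAT and 34.8 ± 2.09 and 47.4 ± 4.24 in BAT (-0.81 ± 0.10, adjusted p = 7.13e-05 by edgeR), and Pdia6 differed by -0.73 ± 0.10. The cytokine receptor subunit Il17rc differed by -1.19 ± 0.18 and Ttc38 by -0.99 ± 0.14. The exons of Txndc5, Pdia6, Snapc3 and Ccar1 overlap those of a gene on the opposite strand, so part of their reads cannot be assigned with certainty. Together the 2 directions held 443 genes. That count was 748 by DESeq2, 223 in the 20 cold libraries alone and 244 to 706 without 1 library (244 without iWAT 24 h replicate 4, 706 without iWAT 6 h replicate 4).

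**Figure D5:**
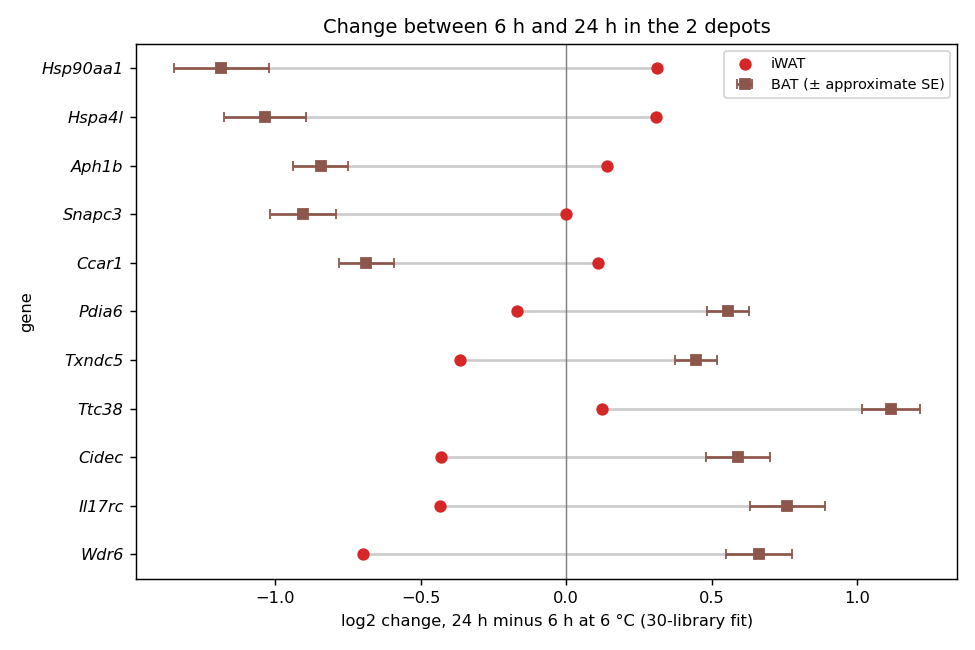
Log2 change from 6 h to 24 h at 6 °C in iWAT (red dots) and BAT (brown squares, ± approximate SE) for the 11 genes given in the text, named by smallest p of the difference between depots, from a fit of 30 libraries. In iWAT 10 of the 11 values lie between -0.43 and 0.31, and Wdr6 at -0.70 lies opposite its BAT value of 0.66.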

How the data were processed

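PolyA RNA of iWAT and BAT was sequenced in bulk. Per the submitters' processing notes the authors aligned reads with HISAT2 to GRCm39 and used HTSeq, and they deposited raw counts and FPKM values per gene. Versions and the strand setting are not given in the sources used here. Columns were matched to samples by their names.

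Counts of the 3 iWAT groups were filtered (filterByExpr, minimum count 10), scaled by TMM and tested with edgeR 4.0.16 (R 4.3.3, quasi-likelihood F test, 24 h minus 6 h, Benjamini-Hochberg, threshold 0.05). The SE of a log2 change is approximate. Spread was tested with limma 3.58.1 on absolute deviations of log2 CPM (prior count 2) from the group mean, library distances with an exact permutation test, and the depot difference with an edgeR interaction over 30 libraries. DESeq2 1.42.0, limma on FPKM, other scalings and filters, and leaving out each library were alternatives. The procedures were tested on simulated data. Depth was 27.3M to 39.8M counts per iWAT library.

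Named genes were the called one, the 12 higher and 12 lower of smallest p without overlap, 8 each way for spread, 6 each way for depot, 20 fixed genes and up to 3 of smallest p per list. Members and the 36 lists (676 of 678 names matched) were chosen with earlier results of these data known. Chromosomal positions and sequences were not used, because the reference at hand is of another build. Gene overlaps come from its annotation. Some genes picked by the naming rule are not reported here.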

Additional observations from a re-analysis of the deposited data

Results flagged for a closer look

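In the iWAT cold groups, 1 library stood apart from the other 4 by Dixon's ratio in 24 of 406 sets of 5 values looked at (levels of 166 named genes, list scores and library distances), and chance alone gives about 1 in 20. Replicate 1 of 6 h was high for the enzyme of cholesterol synthesis Ebp (42.9 CPM, others 25.99 to 28.4), for the globin gene Hba-a2 (6.18 CPM, others 1.05 to 2.35), for the neutrophil gene S100a8 (2.27 CPM, others 0.175 to 0.492) and for the blood cell score (4.14, others 3.06 to 3.17), and low for Vegfa (331 CPM, others 466 to 513). Replicate 2 of 6 h was high for Fos (3.68 CPM, others 0.931 to 1.55) and for the proliferation score (1.198, others 0.403 to 0.535). Replicate 3 of 6 h was high for Stc2 (30.4 CPM, others 10.8 to 15.7) and low for the respiratory chain score (7.84, others 8.39 to 8.595). Replicate 4 of 6 h was high for Fasn (12293 CPM, others 5627 to 7546) and the protease inhibitor Timp1 (0.798 CPM, others 0.472 to 0.557) and low for the beta-adrenergic receptor Adrb3 (360.0 CPM, others 441 to 465). Replicate 5 of 6 h was high for the nuclear receptor Nr4a1 (28.2 CPM, others 3.803 to 6.28) and for the score of the integrated stress response and amino acid supply (4.14, others 3.77 to 3.86).

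Among the 24 h libraries, replicate 1 was high for Maob (79.9 CPM, others 71.2 to 73.1) and low for the glyceroneogenesis enzyme Pck1 (3385 CPM, others 4885 to 5104). Replicate 3 was high for Ebf2, a regulator of brown and beige fat (69.6 CPM, others 47.6 to 52.5). Replicate 4 was high for the adhesion molecule Icam1 (12.3 CPM, others 7.38 to 7.8), Adgre1 (28.2 CPM, others 14.4 to 17.6) and the B cell gene Cd79b (1.05 CPM, others 0.337 to 0.541), and low for the score of tRNA modification (3.42, others 3.55 to 3.59). Replicate 5 was high for Lep (455 CPM, others 169 to 249) and Fos (27.9 CPM, others 1.44 to 2.63) and for Herpud1, a gene of protein quality control in the endoplasmic reticulum (75.9 CPM, others 66.4 to 68.5).

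The change from 6 h to 24 h differed between iWAT and BAT by the interaction test in 171 genes on the side of a higher value in iWAT and in 272 on the side of a lower one. The difference of log2 changes, iWAT minus BAT, was 1.5 for Hsp90aa1, 1.34 for Hspa4l, 0.98 for Aph1b, 0.91 for Snapc3 and 0.80 for Ccar1 on the first side, and -1.36 for Wdr6, -1.19 for Il17rc, -1.02 for Cidec, -0.99 for Ttc38, -0.81 for Txndc5 and -0.73 for Pdia6 on the second.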

How the results depend on the processing

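With edgeR on the 3 iWAT groups 1 gene was called between 6 h and 24 h. DESeq2 called 122, a fit of all 30 libraries 56 and limma on log2(FPKM + 1) 5. No gene was called in the 10 cold libraries alone (0), with limma voom and weights by group (0) or by library (0), on log2(FPKM + 0.1) (0) or with the replicate block (0). Leaving out 1 library gave 0 to 13 genes, with 13 when 6 h replicate 4 was the one, 6 for 24 h replicate 1 and 2 for 6 h replicate 5. The cause of these differences was not tested. RLE or upper-quartile scaling and other filters left the count at 1.

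The spread test called 0 genes and 0 to 101 with 1 library left out. The count was 101 without 6 h replicate 2, 11 without replicate 3, 8 without replicate 1, 4 without replicate 4 and 2 without replicate 5 of that group, and 8 without 24 h replicate 2 and 1 without 24 h replicate 3. On simulated libraries the test made false calls once the groups were of unequal size, so these counts are no measure of unequal spread. The median ratio of standard deviations was 1.24 to 1.32 under other scalings, filters and units and 1.11 to 1.41 with 1 library left out. The difference in mean distance was 0.0338 (without 6 h replicate 1) to 0.0791 (without 6 h replicate 2), and 0.0328 on log2(FPKM + 1).

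The depot difference held 443 genes, 748 by DESeq2, 223 in the 20 cold libraries, 499 with the replicate block within tissue and 244 to 706 with 1 library left out. It was 244 without iWAT 24 h replicate 4, 249 without BAT 24 h replicate 1, 268 without iWAT 6 h replicate 1, 279 without BAT 6 h replicate 2, 293 without BAT 6 h replicate 5, 687 without BAT 6 h replicate 1 and 706 without iWAT 6 h replicate 4.

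The labels do not state that replicate numbers pair the cold groups. Deviations of same-numbered libraries correlated at 0.0522, -0.065, 0.328, 0.0749 and 0.124, and 2 of 5 libraries correlated best with their own number. So few values cannot decide whether libraries of the same number belong together. Removing the number from the spread test gave no value, because with 2 groups the residuals of same-numbered libraries mirror each other. No called value changed its sign. Over all settings of the single genes, 1119 values of the level kept their side of the threshold, 52 passed it newly and 16 no longer passed it. Of the spread values 295 kept their side and 9 passed it newly, and all 300 values of the 12 depot differences kept theirs. For genes of few counts, depth and the 5 libraries a group limit what could be called.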

Other observations

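The heat shock gene Hspa1a, a chaperone whose gene has a near-identical neighbour, was at 0.633, 1.32, 1.41, 1.34 and 2.33 CPM in the 6 h libraries and 2.66, 1.79, 2.38, 1.34 and 1.27 in the 24 h libraries (0.42 ± 0.49). The stress factor Atf3 was at 3.87, 5.53, 2.03, 8.52 and 9.12 CPM at 6 h and 10.7, 4.16, 3.87, 10.1 and 11.3 at 24 h (0.46 ± 0.42), and Nr4a1, an early gene of beta-adrenergic signalling, at 5.17, 6.28, 3.803, 6.21 and 28.2 and 9.28, 15.6, 2.75, 10.7 and 16.6 (0.14 ± 0.60). None of these 3 passed an unadjusted p of 0.05 by edgeR.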
